A study of Mus musculus with 12 samples.

Results

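The cathepsin family described here comprised 10 genes, Ctsa, Ctsb, Ctsc, Ctsd, Ctsf, Ctsh, Ctsk, Ctsl, Ctss and Ctsz, taken by exact gene symbol from the 21936 genes listed in the series. Poly(A) RNA was sequenced from skeletal muscle of C57BL/6N mice aged 3 months. The control group was wild type. The other group was PTRF knockout, labelled as muscular dystrophy and lacking the caveolar coat protein encoded by Cavin1. The labels give no Cre or promoter and do not say whether the deletion was confined to a tissue, nor whether numbered samples were separate animals, and p-values therefore cover the spread among the libraries, which could be technical in origin. Samples were labelled soleus or quadriceps, with 3 of each genotype for either muscle. The quadriceps values were copies of the soleus values, replicate by replicate, with a largest difference of 0 TPM over the listed genes and over the 10 cathepsins. The data were therefore counted as 6 libraries, 3 wild type and 3 knockout, whose muscle of origin is unknown, and no muscle comparison was made.

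Cathepsins are proteases of the lysosome. They are made as inactive precursors, carried to lysosomes by mannose 6-phosphate receptors and activated in the acid interior. Most, including cathepsins B, C, F, H, K, L, S and Z, use a catalytic cysteine, whereas cathepsin D is an aspartic protease and cathepsin A a serine carboxypeptidase that also protects other lysosomal enzymes. In skeletal muscle they complete the breakdown of proteins delivered by autophagy, and macrophages that enter damaged muscle carry large amounts of several of them. Following general knowledge of where they are made, Ctss, Ctsc, Ctsh and Ctsz were treated as myeloid-rich, and Ctsa, Ctsb, Ctsd, Ctsf and Ctsl as ubiquitous. Ctsk, best known from osteoclasts and also made by fibroblasts, was placed in neither class.

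The letters around the start sites of these genes are shown first, since both lysosomal and myeloid regulators read such letters. Promoter windows of 300 bases (250 before to 50 after the start site, RefSeq, GRCm38.p6) were found for 8 of the 10 genes, with 2 windows for Ctsa. Ctsb and Ctsh had none. The E-box core CACGTG, the centre of the element bound by the lysosomal regulator TFEB, was searched on both strands and lay in windows of Ctsa, Ctsd, Ctsf and Ctsl, which are ubiquitous cathepsins, and in none of Ctsc, Ctsk, Ctss and Ctsz. It occurred in 7.15% of 32851 promoter windows of the same length. The longer form TCACGTGA, which contains CACGTG, occurred in 0.974% of windows and was present in Ctsa and Ctsd. In Ctsa the matches lay only in window 2, which begins downstream of the annotated start of the gene. The sequences below show each match in capitals within 30 bases on the strand of the gene. The stretches of Ctsa and Ctsl, and the Ctsd stretch with TCACGTGA, overlap annotated exons of the same gene.
Ctsa at chr2:164833749-164833778, plus strand: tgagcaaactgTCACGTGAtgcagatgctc
Ctsa at chr2:164833766-164833795, plus strand: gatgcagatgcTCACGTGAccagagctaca
Ctsd at chr7:142387908-142387937, minus strand: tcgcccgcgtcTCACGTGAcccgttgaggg
Ctsd at chr7:142388048-142388077, minus strand: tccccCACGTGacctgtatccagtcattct
Ctsf at chr19:4855074-4855103, plus strand: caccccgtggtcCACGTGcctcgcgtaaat
Ctsl at chr13:64370739-64370768, minus strand: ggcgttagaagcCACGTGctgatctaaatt

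Ctss, the member with the largest change below, held other letters. A repeat of GAAA with 2 bases between its copies, of the kind read by interferon regulatory factors, was present in its window and in 3.44% of all windows, and GAGGAAGT, the kind read by the myeloid factor PU.1, was present in Ctss and Ctsc and in 3.2% of all windows. The AP-1 type site TGANTCA (7.81% of windows) was in none of the windows of these genes. In Ctss the repeat began 21 bases before the start site, and the GAGGAAGT letters, on the opposite strand, began 2 bases before it. The 250 bases before the Ctss start site, where no exon is annotated, are shown with the repeat and the first letters of the second match in capitals, followed by the 30 bases around the second match in Ctss and in Ctsc. The 30 bases of Ctss overlap an annotated exon of Ctss, and those of Ctsc overlap none.
Ctss at chr3:95526536-95526785, plus strand: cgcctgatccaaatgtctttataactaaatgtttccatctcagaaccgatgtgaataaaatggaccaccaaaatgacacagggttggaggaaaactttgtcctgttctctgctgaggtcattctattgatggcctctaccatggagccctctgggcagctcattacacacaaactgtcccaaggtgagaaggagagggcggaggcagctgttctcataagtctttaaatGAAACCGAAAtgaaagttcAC
Ctss at chr3:95526773-95526802, plus strand: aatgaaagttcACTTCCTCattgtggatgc
Ctsc at chr7:88277923-88277952, plus strand: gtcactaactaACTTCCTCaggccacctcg
These matches are letters in a window and not measured binding sites, and the motifs were chosen with the values of the genes known.

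Values were read as TPM, a share of transcripts that allows for their length, so levels can be compared between genes. The listed genes of a library summed to between 843194 and 872482 TPM, and sequencing depth is unknown. For Cavin1 the wild-type libraries gave 45.2, 40.0 and 42.2 TPM and the knockout libraries 0.284, 0.0905 and 0.0254 TPM, as labelled. Actin of skeletal muscle fibres, Acta1, ranged from 10740 to 18146 TPM over the libraries. Transcripts of the mitochondrial genome held 43.0% to 52.3% of TPM in wild type and 39.0% to 45.7% in knockout. Wild-type library 3, at 43.0%, lay within the knockout range. The median log2 fold change over all 11056 tested genes was 0.33, and it was 0.18 on a nuclear-only scale that leaves these transcripts out. The log2 fold change of each member is given as deposited and again after a trimmed-mean rescaling, which brought that median to -0.01. Summed levels, and the fold changes of some other genes, are given as deposited only. In bulk tissue, more cells of a type and more RNA per cell cannot be told apart.

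The summed cathepsin level, as deposited, was higher in the knockout. Of the 10 genes 7 rose on the deposited scale and 4 after rescaling. The summed level of the 10 genes was 430.4, 423 and 489.8 TPM in wild-type libraries 1 to 3 and 803, 570.7 and 696 TPM in knockout libraries 1 to 3. Means were 448 ± 36.5 and 690.1 ± 116.5 TPM (SD, n = 3 each), a ratio of 1.54. All 10 genes passed the filter of at least 1 TPM in 3 libraries, and each was above 1 TPM in every wild-type library, so none was tested only because it was high in the knockout. With limma 7 of 10 were higher in the knockout at an adjusted p under 0.05 and none was lower. Of all tested genes 36.3% were higher and 2.92% lower. After trimmed-mean rescaling 4 of 10 were higher, Ctss, Ctsk, Ctsz and Ctsc, against 14.2% of all genes, and none was lower, against 13.5%. The 7 became 4 without wild-type library 2, and 4 without that library and knockout library 1 together, where 16% of genes were higher and 2.04% lower. On the quantile scale 5 members were higher, against 12.4% of genes higher and 13.1% lower, and on the nuclear-only scale, which leaves out transcripts of the mitochondrial genome, 5, against 23.5% and 6.4%. Knockout values lay above all wild-type values for 9 of the 10 genes, as for 48.7% of tested genes, and after rescaling for 5, against 21.4%. The median log2 fold change of the members was 0.63 on the deposited scale and 0.24 after rescaling.

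**Figure D1:**
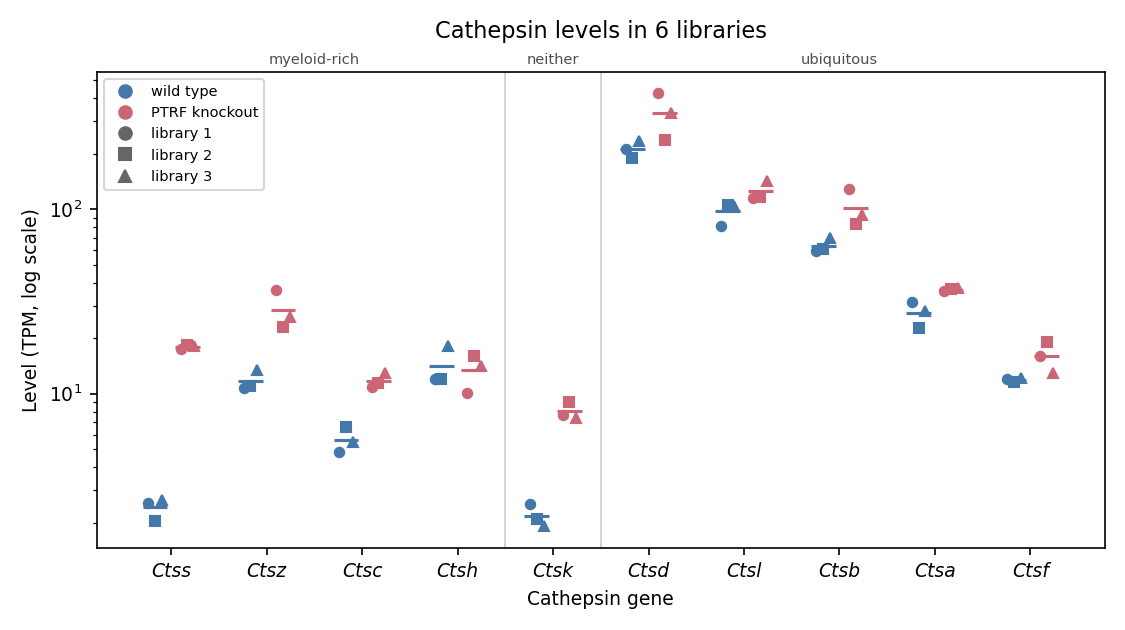
Level of each cathepsin in TPM (log axis) in 3 wild-type and 3 PTRF knockout libraries, with points for libraries and bars for group means. Ctss and Ctsk lie apart in the 2 groups, the Ctsh groups overlap, and the abundant Ctsd, Ctsl and Ctsb shift less than Ctss on the log axis.

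Ctss (ENSMUSG00000038642, protein coding, chromosome 3 from 95526786 to 95556403 on the plus strand, GRCm38) encodes the cysteine protease that trims the invariant chain of MHC class II in antigen-presenting cells. Its wild-type values were 2.55, 2.05 and 2.66 TPM and its knockout values 17.5, 18.5 and 18.1 TPM, in the order of libraries 1 to 3 used for each gene below. The 2 groups were far apart and each was narrow. The knockout mean was 7.45 times the wild-type mean, a difference of 2.48 in log2(TPM + 1) (SE 0.14, adjusted p = 1.26e-06, limma). After rescaling it was 2.15 (SE 0.12, adjusted p = 5.9e-05), and all 16 alternatives gave a call in the same direction. By exact permutation, two-sided, p was 0.1 for Ctss and for the other 8 genes whose groups did not overlap, which is the lowest p reachable with 3 against 3, and 0.9 for Ctsh.

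Ctsk (ENSMUSG00000028111, chromosome 3 from 95499256 to 95509362, plus strand) lies next to Ctss, with 17423 bases and no annotated gene between them. It encodes a potent collagen-degrading protease. Its values were 2.51, 2.096 and 1.91 TPM in wild type and 7.71, 9.03 and 7.40 TPM in knockout. It rose 3.7 times by the means, with a log2 fold change of 1.51 (SE 0.14, adjusted p = 2.12e-05) and 1.20 after rescaling. It kept its call in the 15 alternatives that tested it, and the filter of 10 TPM left it out. Osteoclast-restricted genes were low beside it, and 5 of 6 were not tested for low values. The other, Acp5, entered the test through its knockout values alone. Acp5 was called higher (log2 fold change 0.44, adjusted p = 0.0406), but not after rescaling (adjusted p = 0.253). The sum of the 6 genes was 1.22 to 1.65 TPM in wild type and 2.35 to 2.68 TPM in knockout, and no single one passed 1.64 TPM. Genes of fibroblasts and fibro-adipogenic progenitors were abundant and also rose. Of these, 10 of 10 were higher, and 8 after rescaling, against 36.3% and 14.2% of all genes. Their sum went from at most 339 TPM in wild-type libraries to 916 to 981 TPM in knockout libraries. Among them Cd34, a surface protein of these progenitors and of endothelium, was at 16.3 ± 2.16 and 53.2 ± 3.13 TPM, and Col3a1, a fibrillar collagen, at 21.1 ± 2.503 and 103 ± 45.2 TPM. Their part in the Ctsk result was not tested.

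Ctsz and Ctsc also rose. Ctsz (ENSMUSG00000016256, chromosome 2 from 174427493 to 174439039, minus strand), a carboxypeptidase, measured 10.7, 10.9 and 13.5 TPM in wild type, and in knockout 36.7, 23.1 and 26.03 TPM. Knockout library 1 was the highest and no knockout value fell into the wild-type range. The log2 fold change was 1.20 (SE 0.18, adjusted p = 0.000475), and 0.83 after rescaling. Ctsc (ENSMUSG00000030560, chromosome 7 from 88278085 to 88310888, plus strand), the dipeptidyl peptidase that activates granule serine proteases, gave 4.84, 6.56 and 5.46 TPM in wild type against 10.8, 11.5 and 12.99 TPM in knockout. The log2 fold change was 0.95 (SE 0.15, adjusted p = 0.000638), and 0.60 after rescaling. Both genes were called in the same direction by all 16 alternatives. Ctsz shares 10 exon bases with Nelfcd on the opposite strand, and the labels do not state strand-specific counting.

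Ctsh (ENSMUSG00000032359, chromosome 9 from 90054152 to 90076089, plus strand), an aminopeptidase, was the myeloid-rich gene that did not pass. Wild-type values were 12.03, 11.96 and 18.1 TPM and knockout values 10.1, 15.95 and 14.1 TPM, with the highest value in wild-type library 3 and the lowest in knockout library 1. The groups overlapped. The log2 fold change was -0.06 (SE 0.20, adjusted p = 0.813) and -0.43 after rescaling (SE 0.21, adjusted p = 0.173; the range over the alternatives was 0.173 to 0.957). The sign turned when wild-type library 3 (0.12) or knockout library 1 (0.11) was left out. Thus 3 of the 4 myeloid-rich genes were higher on both scales, against 36.3% and, after rescaling, 14.2% of all genes. The class had a median log2 fold change of 1.07, or 0.71 after rescaling, against 0.33 and -0.01 over all tested genes.

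The ubiquitous cathepsins included the 4 most abundant members and had smaller fold changes than Ctss, Ctsk, Ctsz and Ctsc. Ctsd (ENSMUSG00000007891, chromosome 7 from 142375911 to 142388038, minus strand), the aspartic protease, gave 213, 189 and 234 TPM in wild type against 425, 237 and 332 TPM in knockout. The lowest knockout value was just above the highest wild-type value, and knockout library 1 stood well above the others. The log2 fold change was 0.61 (SE 0.20, adjusted p = 0.0344). The call was lost after rescaling (0.21, adjusted p = 0.317) and after quantile normalization (adjusted p = 0.0951). The nuclear-only scale (adjusted p = 0.0842) and the fit with no filter (adjusted p = 0.0945) did not give it either. Nor did the fits without wild-type library 1 (adjusted p = 0.0653) or 2 (adjusted p = 0.123), or without knockout library 1 (adjusted p = 0.132) or 3 (adjusted p = 0.0829). The adjusted p ran from 0.00367 to 0.339 over the alternatives. Annotated exons of Ctsd share 808 bases with Gm49369, a gene on the same strand that reached at most 7.18 TPM.

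Ctsb (ENSMUSG00000021939, chromosome 14 from 63122462 to 63145923, plus strand), a cysteine protease of lysosomes in most tissues, gave 59.6, 61.0 and 69.4 TPM in wild type against 128, 83.2 and 92.8 TPM in knockout. The groups did not overlap, and knockout library 1 was again the highest. The log2 fold change was 0.65 (SE 0.18, adjusted p = 0.0139). The call was lost after rescaling (0.26, adjusted p = 0.122) and without wild-type library 2 (adjusted p = 0.0511), within a range of 0.0053 to 0.137 over the alternatives. Exons of Ctsb share 774 bases with Fdft1 on the opposite strand, which reached at most 35.8 TPM. Both Ctsb and Ctsd, like Ctsz, were lowest among the knockout libraries in library 2. Knockout library 1 held the highest knockout value for 59.9% of all tested genes, for 2 of the 5 ubiquitous members and for 1 of the 4 myeloid-rich members. It also held the most of the neutrophil transcript S100a8, 13.2 TPM against 1.33 and 2.94 TPM in knockout libraries 2 and 3. The part of these differences in the Ctsb and Ctsd values was not tested.

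Ctsa (ENSMUSG00000017760, chromosome 2 from 164832873 to 164841032, plus strand), the serine carboxypeptidase, gave 31.4, 22.6 and 28.0 TPM in wild type against 35.8, 36.7 and 37.3 TPM in knockout, without overlap. Its log2 fold change of 0.42 (SE 0.15, adjusted p = 0.0469) passed in 5 of 16 alternatives. It was 0.04 after rescaling (adjusted p = 0.864), and it did not pass with the replicate number as a block (adjusted p = 0.0628), with no filter (adjusted p = 0.0639), on the nuclear-only scale (adjusted p = 0.255) or after quantile normalization (adjusted p = 0.519). Leaving out wild-type library 2 (adjusted p = 0.219) or 3 (adjusted p = 0.0613), or knockout library 1 (adjusted p = 0.08), 2 (adjusted p = 0.0718) or 3 (adjusted p = 0.128), also ended the call. The range over the alternatives was 0.0449 to 0.864. Ctsa shares exon bases with Pltp (495 bases) and Neurl2 (324 bases) on the opposite strand, which reached at most 28.5 and 17.6 TPM.

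Ctsl and Ctsf did not pass. Ctsl (ENSMUSG00000021477, chromosome 13 from 64359337 to 64370890, minus strand), a cysteine protease known from muscle wasting, gave 81.5, 106 and 105 TPM in wild type against 116, 116 and 143 TPM in knockout. Knockout values lay above wild-type values, narrowly, in all libraries. The log2 fold change was 0.36 (SE 0.16, adjusted p = 0.0951, from 0.0796 to 0.898 over the alternatives), close to the median of all genes, and it was -0.03 after rescaling. Exons of Ctsl share 1742 bases with Gm47123 on the opposite strand and 395 with the pseudogene Gm49230. Neither is among the listed genes, so their levels could not be examined. Ctsf (ENSMUSG00000083282, chromosome 19 from 4855130 to 4860918, plus strand), another lysosomal cysteine protease, gave 12.1, 11.6 and 12.2 TPM in wild type against 16.03, 19.1 and 13.01 TPM in knockout. The wild-type values were close together, the knockout values spread, and the groups did not overlap. Its log2 fold change was 0.38 (SE 0.16, adjusted p = 0.0722, from 0.0471 to 0.95 over the alternatives), and 0.02 after rescaling. It passed without knockout library 3 (adjusted p = 0.0471), the lowest knockout value. Of the 5 ubiquitous genes, 3 were thus higher on the deposited scale, against 36.3% of all genes, and none after rescaling, against 14.2%. The class medians were 0.42 and 0.04, against 0.33 and -0.01 over all tested genes. A p that missed the threshold does not show that Ctsl and Ctsf were equal in the 2 groups.

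**Figure D2:**
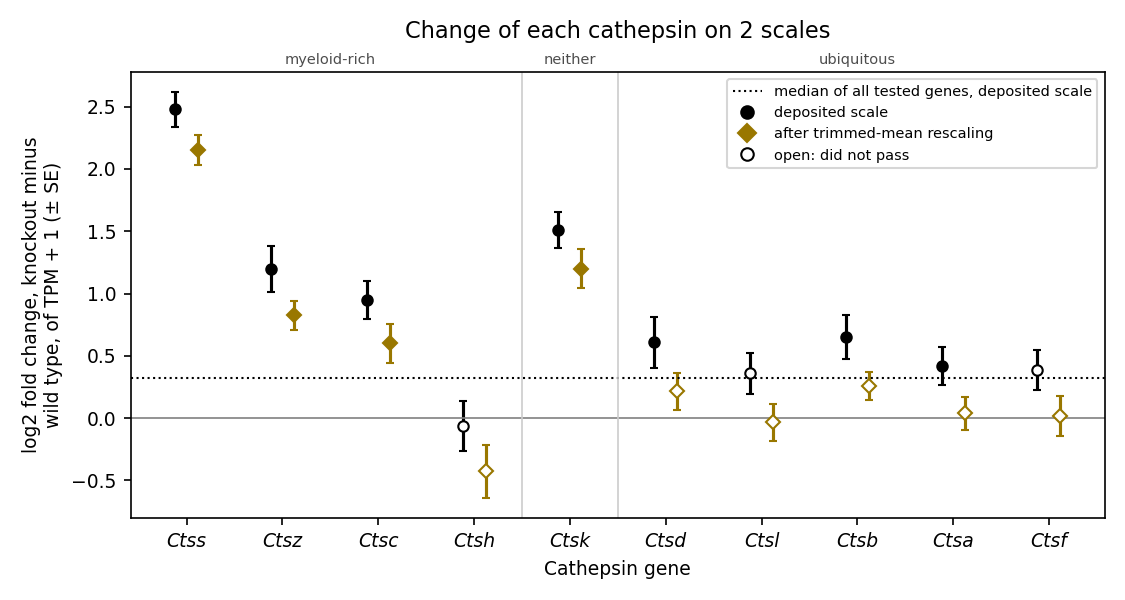
Log2 fold change of each cathepsin, knockout minus wild type, on the TPM + 1 scale with SE, before (circles) and after (diamonds) trimmed-mean rescaling, with filled symbols for genes that passed. Ctss, Ctsk, Ctsz and Ctsc passed on both scales, and the dotted line is the median of all tested genes, 0.33.

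Shares within the family do not depend on the scale of a library. In wild type Ctsd made up 47.3 ± 2.53% of the summed cathepsin TPM, Ctsl 21.8 ± 3.07% and Ctsb 14.1 ± 0.282% (SD, n = 3). In knockout the shares were 47.4 ± 5.66%, 18.4 ± 3.49% and 14.6 ± 1.31%, and each overlapped the wild-type range. The share of Ctss was 0.592%, 0.484% and 0.543% in wild-type libraries 1 to 3 and 2.18%, 3.23% and 2.59% in knockout libraries 1 to 3. Ctsk went from 0.49 ± 0.0962% to 1.20 ± 0.334% and Ctsz from 2.61 ± 0.136% to 4.11 ± 0.417%, in both cases without overlap. Ctsh was the one member whose share was lower in every knockout library than in every wild-type library, 2.80%, 2.83% and 3.70% against 1.26%, 2.79% and 2.03%, with the closest pair of values differing by little. The 4 myeloid-rich genes together held 7.52 ± 0.562% in wild type and 10.6 ± 1.40% in knockout. The share of Ctsc, 1.26 ± 0.248% in wild type and 1.74 ± 0.348% in knockout, overlapped. Within each library the mean log2(TPM + 1) of the myeloid-rich genes minus that of the ubiquitous genes was -2.84, -2.74 and -2.69 in wild type and -2.26, -1.998 and -2.05 in knockout, a rise of 0.66. The class was uneven, with log2 fold changes of 2.48 for Ctss, 1.20 for Ctsz, 0.95 for Ctsc and -0.06 for Ctsh. Since the members and classes were chosen with earlier results known, these values carry no test.

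**Figure D3:**
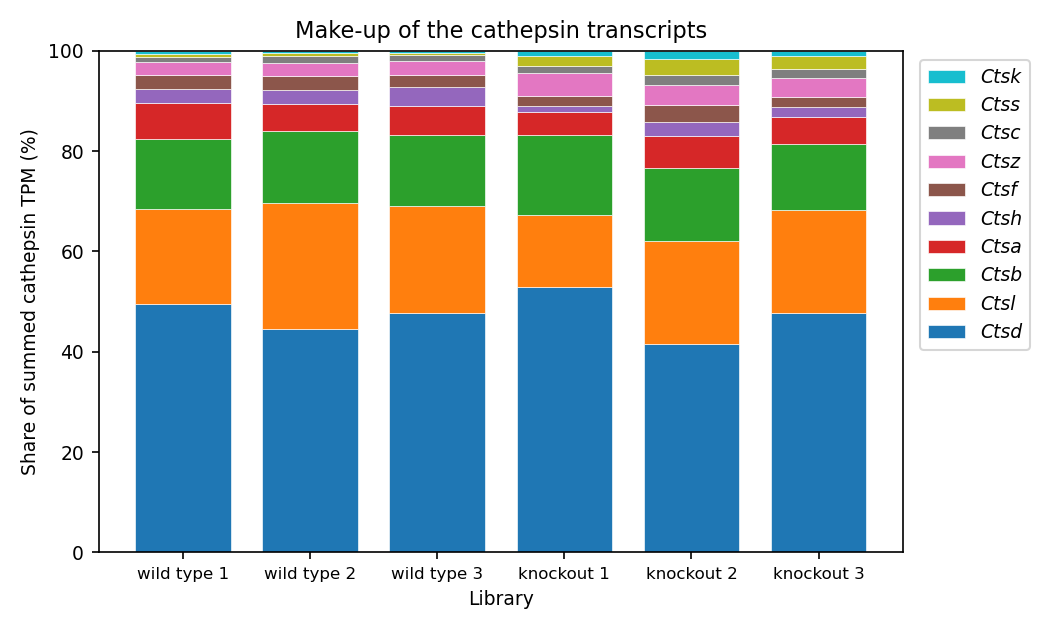
Share of each cathepsin in the summed TPM of the 10 genes (%) in each of the 6 libraries, as stacked bars from 0 to 100. Ctsd, Ctsl and Ctsb fill 76.5% to 84.0% of each bar, and the Ctss band is wider in each knockout library than in each wild-type library.

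The order of the levels differed in its middle. In wild type it ran Ctsd, Ctsl, Ctsb, Ctsa, Ctsh, Ctsf, Ctsz, Ctsc, Ctss and Ctsk. The neighbours Ctsh and Ctsf, Ctsf and Ctsz, and Ctss and Ctsk overlapped over the 3 libraries and cannot be ordered. In knockout it ran Ctsd, Ctsl, Ctsb, Ctsa, Ctsz, Ctss, Ctsf, Ctsh, Ctsc and Ctsk. There Ctsl overlapped Ctsb, Ctsa overlapped Ctsz, and Ctss, Ctsf and Ctsh each overlapped the gene that follows, whereas Ctsc did not overlap Ctsk. Ctss thus stood at position 9 in wild type and 6 in knockout, but it cannot be ordered against Ctsf. By mean level over the 6 libraries Ctsd was above 97.5% of tested genes, Ctsl above 94.5%, Ctsb above 92.9%, and Ctsk above 37.9%.

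Markers of macrophages and monocytes had larger fold changes than most cathepsins. Of 23 markers 21 were tested. All 21 were higher, against 36.3% of all genes, and so were all 20 tested after rescaling, against 14.2%. Of the 21, 9 were tested because of their knockout values alone. The other 12 had log2 fold changes from 1.25 to 2.61. Without knockout library 1, 2 or 3 those 9 were no longer tested and 12 were called. Their summed level was 46.7 to 56.5 TPM in wild-type libraries and 231 to 277 TPM in knockout libraries, a ratio of 4.96. Tyrobp, an adaptor of myeloid receptors, was at 1.82 ± 0.308 and 12.3 ± 0.551 TPM, and the complement gene C1qc at 3.51 ± 0.464 and 20.98 ± 3.95 TPM. Neutrophil genes were low except in knockout library 1, and 6 of 8 were not tested. The sum of the 8 was 0.737 to 2.87 TPM in wild type and 4.204 to 41.2 TPM in knockout. The 2 tested, S100a8 and S100a9, were higher on both scales, and 1 of them was tested because of its knockout values alone. Both lost their calls after quantile normalization and with no filter. Lymphocyte markers such as Cd3d were near 0, with none of 10 tested and a sum of at most 1.73 TPM in any library. Among the remaining lists 5 of 5 tested mast cell genes were higher, 2 of which were tested because of their knockout values alone. Of 6 endothelial genes 5 were higher and 1 lower (Kdr), and calls of higher were made for 0 of 4 adipocyte genes, 1 of 9 muscle fibre genes (Myh4) and 1 of 4 tendon and Schwann cell genes (Scx). After rescaling 4 endothelial genes were higher and 1 lower, and 1 tendon and Schwann cell gene was higher and 1 lower. No muscle fibre gene was then higher, and 2 were lower. Myh4 lost its call (adjusted p = 0.0511), and its wild-type values were 6.43, 194 and 4.21 TPM in libraries 1 to 3. The part of cell numbers in the cathepsin values was not tested.

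The level of each cathepsin was also divided by the summed macrophage markers. Ctss per unit of marker was 0.0543, 0.0439 and 0.0470 in wild-type libraries 1 to 3 and 0.0741, 0.0801 and 0.0651 in knockout libraries 1 to 3, a ratio of 1.51 without overlap. Much of the marker sum was Lyz2, lysozyme. Without Lyz2 the ratio for Ctss was 1.27 and the groups overlapped. Ctsk per unit of marker was 0.75 times the wild-type value, with overlap. The other 8 genes fell to lower ratios without overlap, from 0.2 times for Ctsh to 0.5 times for Ctsz. The marker sum itself rose 4.96 times, so any gene with a clearly smaller rise falls in this ratio. The share of all genes that fell was not counted, so these falls do not mark out the cathepsins. Of the 10 genes, Ctss was thus the one whose fold change reached that of the marker sum.

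**Figure D4:**
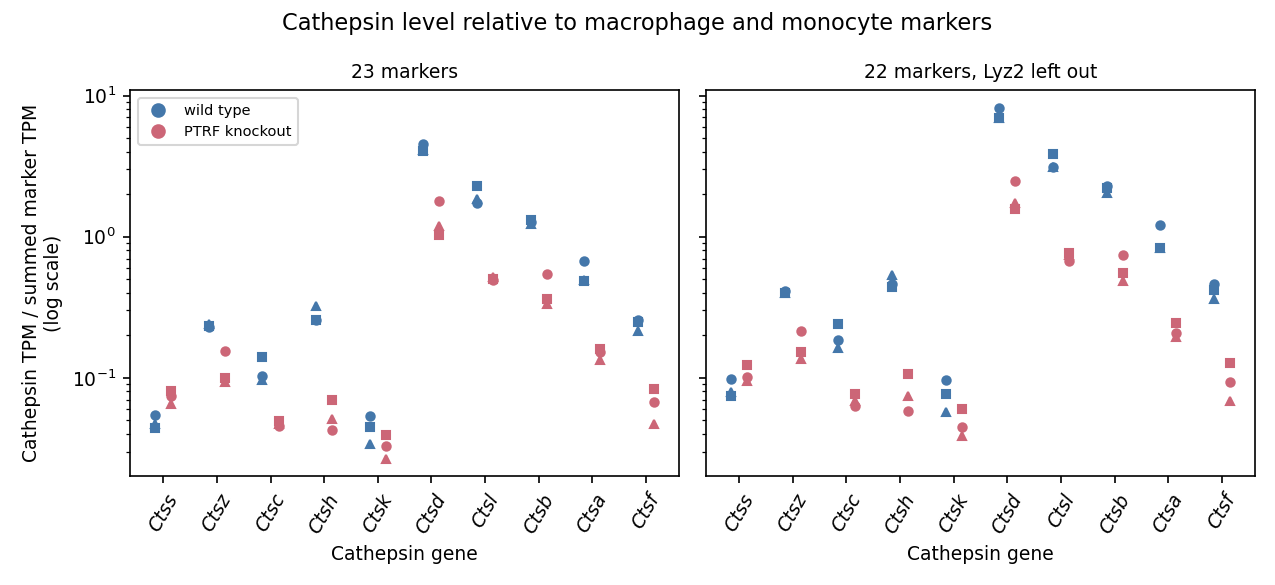
TPM of each cathepsin divided by the summed TPM of 23 macrophage and monocyte markers (left) or of the 22 without Lyz2 (right), on a log axis, 1 point per library. Ctss is higher in knockout on the left and overlaps on the right, Ctsk overlaps in both, and the other 8 genes are lower in knockout.

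The invariant chain, a substrate of cathepsin S, also rose. Of 11 genes for the invariant chain and MHC class II loading, 10 were listed and 6 were tested. All 6 were higher on both scales, against 36.3% and 14.2% of all genes, and their median log2 fold change was 2.60. Of the 6, 1 was tested only through the knockout libraries. Cd74, the invariant chain itself, gave 10.5, 7.06 and 9.51 TPM in wild type against 55.3, 72.1 and 50.9 TPM in knockout (log2 fold change 2.59). H2-Aa, a class II chain, went from 4.83 ± 0.45 to 35.4 ± 9.33 TPM. H2-DMb1, which helps load peptide, was at 0.361 ± 0.0168 and 3.15 ± 0.18 TPM. Of the 10 granule serine proteases that cathepsin C can activate, 3 were tested, the mast cell proteases Tpsb2, Cma1 and Mcpt4, and all 3 were higher. The proteases of neutrophils and lymphocytes in that list were not tested, and none was above 0.84 TPM in any library. Mcpt4 missed the threshold on the quantile scale (adjusted p = 0.0527).

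Of a list of 17 cystatins, stefins, serpins and other protease inhibitors 16 were found, and 11 of these were too low to be tested. Of the 5 tested 4 were higher, against 36.3% of all genes. After rescaling 3 were higher, against 14.2% of all genes. Cst3, cystatin C, the main secreted inhibitor of cysteine cathepsins, gave 273, 292 and 305 TPM in wild type against 588, 532 and 566 TPM in knockout (log2 fold change 0.95). In each library it exceeded every cathepsin of that library. Serpinb1a, a serpin of leukocytes, went from 1.42 ± 0.532 to 10.97 ± 1.46 TPM and Serpinb6a from 173 ± 16.9 to 407 ± 74.7 TPM. Both serpins are among the genes called higher, and whether they act on any of the 10 cathepsins was not examined. Cstb, a cytosolic inhibitor of cathepsins, was at 16.02 ± 4.59 and 23.6 ± 5.12 TPM and did not pass (adjusted p = 0.0547). Of the 13 cathepsin genes that were not among the 10, Ctso, a little studied relative, was the one that could be tested. It rose from 2.14 ± 0.403 to 4.25 ± 0.327 TPM (log2 fold change 0.75), but not past the threshold after quantile normalization (adjusted p = 0.0508). Of the other 12, 9 were at 0 in all 6 libraries, where a gene not listed for a library was counted as 0.

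Other lysosomal genes moved unevenly. Of 39 soluble enzymes and activators 38 were tested, 25 were higher and none lower, against 36.3% and 2.92% of all genes. The list median was 0.49 (log2). Among the 25, 3 entered the test through their knockout values alone. After rescaling 10 were higher, against 14.2% of all genes, and 4 lower, against 13.5%. The 4 were Psap, Smpd1, Aga and Idua. Leaving out wild-type library 2 gave 16 in place of the 25, and leaving out knockout library 1 gave 15. Npc2, which carries cholesterol within the lysosome, went from 8.01 ± 0.34 to 15.6 ± 0.979 TPM, Gm2a, an activator of ganglioside breakdown, from 1.58 ± 0.0337 to 3.87 ± 0.562 TPM, and the macrophage lysozyme Lyz2 from 20.98 ± 1.75 to 76.7 ± 11.5 TPM. Psap, the precursor of the saposins, was at 208 ± 17.7 and 212 ± 14.6 TPM. Among 17 lysosomal membrane genes 3 were higher and none lower, and after rescaling 1 was higher and 2 lower. The 3 became 1 without wild-type library 1 or 2 and 5 without wild-type library 3. Cd63, a tetraspanin, went from 91.5 ± 14.2 to 189 ± 59.2 TPM and was called on both scales. Lamp1, the main glycoprotein of the lysosomal membrane, was at 203 ± 21.6 and 279 ± 32.4 TPM (adjusted p = 0.036). It passed in 6 of 16 alternatives and lost the call after rescaling (adjusted p = 0.632), and also when wild-type library 1 (adjusted p = 0.109) or 2 (adjusted p = 0.15) or knockout library 1 (adjusted p = 0.117) or 3 (adjusted p = 0.0985) was removed, with a range of 0.0229 to 0.632 over the alternatives. Among 17 tested subunits of the vacuolar proton pump 3 were higher, 1 after rescaling with 2 lower, and 5 without wild-type library 3. The medians of the membrane and pump lists, 0.25 and 0.31, were below that of all genes, 0.33.

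Of 12 tested sorting genes and lysosomal transcription factors 8 were higher, against 36.3% of all genes, and none lower. The 8 became 4 after rescaling, against 14.2% of all genes, and 5 without knockout library 1 or 3. Sort1, a sorting receptor, went from 1.52 ± 0.218 to 3.13 ± 0.29 TPM, Gga2, an adaptor of the trans-Golgi, from 3.64 ± 0.283 to 9.59 ± 3.95 TPM, and Gnptab, which makes the mannose 6-phosphate tag, from 2.06 ± 0.243 to 3.91 ± 0.595 TPM. Sort1 and Gnptab lost their calls after quantile normalization (adjusted p = 0.111 and adjusted p = 0.177). Tfeb, the transcription factor that binds the element around CACGTG, gave 12.997, 13.08 and 12.99 TPM in wild type against 22.1, 15.1 and 28.4 TPM in knockout. It passed on the deposited scale (log2 fold change 0.66, adjusted p = 0.0211) and not after rescaling (adjusted p = 0.278). It passed in 7 of 16 alternatives, whose adjusted p ran from 0.00121 to 0.278. Of the other transcription factors in the list, Tfe3 (log2 fold change 0.38, adjusted p = 0.0572) and Mitf (0.08, adjusted p = 0.638) did not pass. Tfec was too low to be tested.

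**Figure D5:**
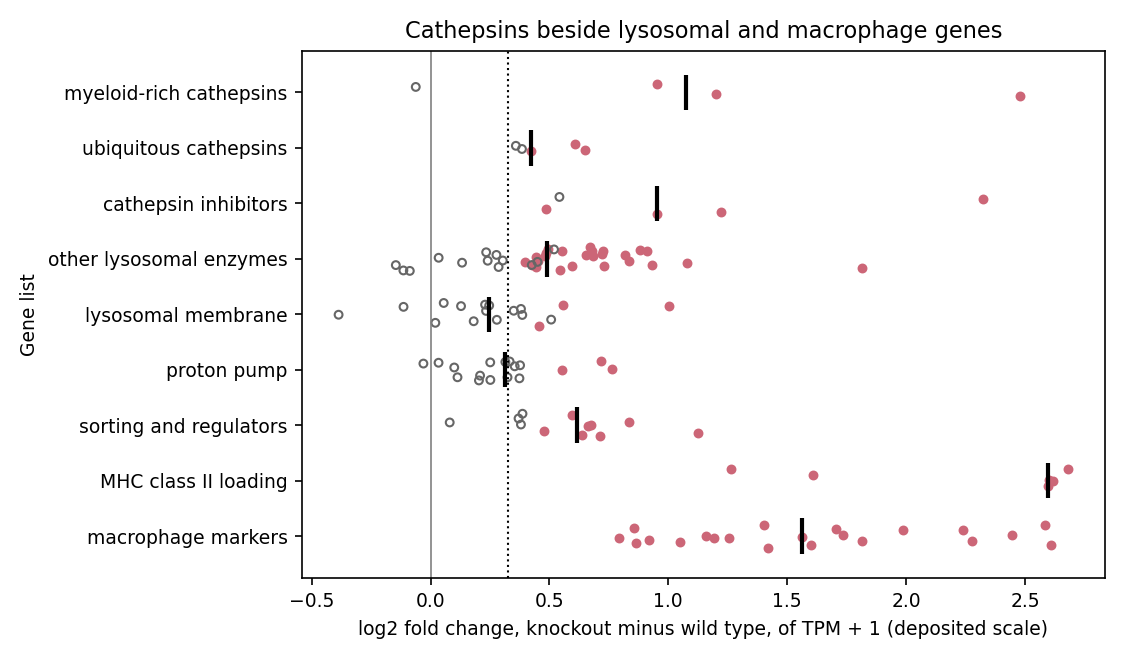
Log2 fold change, knockout minus wild type, of each tested gene by list on the deposited scale, with filled points for genes that passed, open points for those that did not, black bars for list medians and a dotted line at the median of all tested genes, 0.33. The ubiquitous cathepsins lie among the other lysosomal genes, with a median of 0.42, and Ctss at 2.48 lies among the macrophage and MHC class II genes.

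Genes with the profile nearest to that of Ctss were sought among 6929 tested genes with a mean of at least 5 TPM that were not cathepsins of the 10. Likeness was the Euclidean distance over the 6 libraries between log2(TPM + 1) values after subtracting the wild-type mean of each gene. The nearest were S100a6 (0.393), a calcium-binding protein, Capg (0.396), an actin-capping protein, and Vim (0.401), the intermediate filament protein vimentin. Vim gave 43.4, 43.5 and 48.1 TPM in wild type against 208, 285 and 217 TPM in knockout. Nearest to Ctsl were Mon2 (0.0768), a protein of endosome traffic, Cmpk1 (0.179), a nucleotide kinase, and the stress transcription factor Atf4 (0.194). None of these 3 passed: the smallest adjusted p among them was 0.0775, for Mon2. The distances describe these 6 libraries and carry no test.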

How the data were processed

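Poly(A) RNA of 12 labelled samples was deposited as 1 table of gene values per sample. No label or header names the unit. The values deposited by the authors were read as TPM because they are fractional, with totals that TPM would give over part of the transcripts. Per the submitters' processing notes the builds were GRCm38 and mm10 and the software STAR 2.5.3a and kallisto 0.43.0, with no role stated. The quadriceps tables repeated the soleus tables and were left out, which gave 6 libraries. Wild-type library 3 listed 21936 genes and the other libraries 15981 to 16607. A gene not listed for a library was set to 0 there.

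A gene entered the test when 3 or more libraries held 1 TPM or more. Testing used limma 3.58.1 (R 4.3.3) on log2(TPM + 1), genotype only, with the trend option and p-values adjusted (Benjamini-Hochberg) over all tested genes at 0.05. The script was tested on simulated data. The alternatives changed the scale (quantile normalization; a trimmed mean that discards 30% of ratios and 5% of levels; a nuclear-only total without transcripts of the mitochondrial genome), the filter (none, or 10 TPM), the pseudocount (0.1 or 5), the trend (none) and the design (a replicate block). Each library was also left out, as were wild-type library 2 and knockout library 1 together. Members, classes, gene lists and motifs were chosen with earlier results of these data known. Beside the members, the rule for named genes took from each list the passing genes with the smallest adjusted p, at most 3, or the most abundant where none passed, and the 3 nearest profiles of Ctss and Ctsl. Not each of them is printed. Acta1, Cstb, Psap, Smpd1, Aga, Idua, Tfeb, Tfe3, Mitf and Tfec were named after their values were seen. Positions and exon overlaps come from GENCODE M21 (GRCm38) and promoter windows from RefSeq (GRCm38.p6). Sequencing depth, and so counting error, is unknown.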

Additional observations from a re-analysis of the deposited data

How the results depend on the processing

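Ctss, Ctsz, Ctsc and Ctsk kept their direction and side of the threshold under every alternative that tested them. The number of genes higher in the knockout, 4016, became 1373 after quantile normalization, 1561 after trimmed-mean rescaling, 1616 at a filter of 10 TPM (fewer genes tested), 1673 without wild-type library 2 and knockout library 1, and 2379 to 4150 with 1 library left out. The number lower, 323, became 1450, 1479 and 777 on the quantile, trimmed-mean and nuclear-only scales, 213 without both libraries, and 219 to 346 with 1 left out. Members higher, 7, became 4 after trimmed-mean rescaling or without both libraries, and 4 to 6 with 1 left out. Soluble lysosomal enzymes higher, 25, became 7, 10 and 16 on the quantile, trimmed-mean and nuclear-only scales, with 3, 4 and 1 lower, 8 at 10 TPM, 11 without both libraries, and 15 to 24 with 1 left out. Membrane proteins higher, 3, became 1 after quantile or trimmed-mean scaling and without both libraries, and 1 to 5 with 1 left out; 3, 2 and 1 were lower on the quantile, trimmed-mean and nuclear-only scales and 0 to 1 with 1 left out. Pump subunits higher, 3, became 1 after trimmed-mean rescaling and 2 to 5 with 1 left out, with 1 lower after quantile normalization and 2 after trimmed-mean rescaling. Sorting genes higher, 8, became 2, 4, 5, 3 and 3 (quantile, trimmed-mean, no filter, 10 TPM, without both libraries) and 5 to 9 with 1 left out. Macrophage markers higher, 21, became 7 at 10 TPM, 12 without both libraries and 12 to 21 with 1 left out, where fewer passed the filter. The class difference of 0.66 became 0.78 with a pseudocount of 0.1 and 0.36 with 5. The Ctsd share difference, 0.11 percentage points, ran from -2.65 to 3.00 with 1 library left out and was -4.02 without both. The Ctsl share difference ran from -4.78 to -1.34 with 1 left out and was 0.29 without both. The Ctsh log2 fold change ran from -0.19 to 0.12 with 1 left out and was 0.02 without both. That of Ctsl was -0.033 after trimmed-mean rescaling. Except where fewer genes or libraries are named, the cause was not tested.

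Same-numbered libraries did not deviate together (correlations 0.03, -0.01 and 0.04), and pairs of different number ran from -0.13 to 0.098. With so few libraries per group, these correlations cannot show whether the numbers pair the samples. With the replicate number as a block 4047 genes were higher and 326 lower, and Ctsa (adjusted p = 0.0628) and Lamp1 (adjusted p = 0.0515) no longer passed. The macrophage ratio without Lyz2 was chosen after seeing the data. The fit has 4 residual degrees of freedom, depth is unknown, and the calls of Ctsd, Ctsb and Ctsa depended on the scale of the libraries.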
